A study of Homo sapiens with 48 samples.

Results

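Messenger RNA of 42 genes of ribosome biogenesis was followed in human uveal melanoma cells exposed to an inhibitor of chromatin remodelling or to an inhibitor of protein kinase C. The 42 genes were picked by name, as nucleolar and RNA polymerase I genes, out of the 58870 genes in the deposited tables. In 92-1 cells 19 of them rose after 4 h of the remodelling inhibitor (12.9% of all genes tested did) and 35 fell after 24 h (31.4%), whereas the protein kinase C inhibitor lowered 29 at 4 h (9.3%) and 37 at 24 h (29.4%).

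Ribosomes are assembled in the nucleolus. RNA polymerase I copies the ribosomal DNA into a long precursor RNA, small nucleolar ribonucleoproteins modify and help to fold it, and a series of helper proteins cut it and build it into the small and large subunits. The messages of these helper proteins are classical targets of the MYC transcription factor, which binds CACGTG elements, and their output follows cell growth. Uveal melanoma, a cancer of eye melanocytes, usually carries an activated Gq protein that signals through protein kinase C.

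The study profiled 3 uveal melanoma lines, 92-1, MEL202 and MP41, all labelled wild type. FHT-1015 blocks SMARCA4 and SMARCA2, the ATPases of the BAF chromatin remodelling complexes, and was given to each line for 4 h or 24 h beside a DMSO group of the same line and time. IDE196, the protein kinase C inhibitor, was given to 92-1 cells alone for the same times beside a separate pair of DMSO groups. Every one of the 16 groups held 3 libraries labelled as biological replicates, 48 in all, and the labels used here state no doses and no dates. No DMSO library was shared between drugs, times or lines. RNA was selected for poly-A tails, so the ribosomal RNA itself was not measured. Values below are in CPM, the reads of a gene as a share of its library after scaling by the TMM method. A change in the total RNA of a cell would not show in such a share, and in bulk RNA fewer cells expressing a gene cannot be told apart from less RNA per cell.

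Each library held 11394088 to 32317711 reads assigned to genes. A gene was called changed in a comparison when the adjusted p of the quasi-likelihood test in edgeR, corrected over all genes tested, was below 0.05. The spread between replicates was wider in MEL202 and MP41 (biological coefficients of variation 0.294 and 0.217) than in the 92-1 experiments (0.117 with FHT-1015 and 0.112 with IDE196). There were 4 libraries that stood apart, with deviations from their experiment that followed the GC content of genes at a correlation above 0.3, a limit chosen after the values were seen. They were the MEL202 DMSO 4 h replicate 1, the MEL202 FHT-1015 4 h replicate 2, and the MP41 DMSO 24 h replicates 1 and 2. The limit was one-sided: 4 libraries with a correlation below -0.3 were kept, namely the MP41 FHT-1015 4 h replicate 3 (-0.386), the MP41 DMSO 4 h replicates 1 (-0.349) and 3 (-0.323) and the 92-1 FHT-1015 4 h replicate 1 (-0.302). The counts of called genes in MEL202 and MP41 at 24 h are given with and without the 4 libraries that stood apart where they moved. This holds for the 42 genes and for the other gene lists as wholes. Counts by role group, by promoter letters and of cell type markers are given with all libraries only. Without the 4 libraries that stood apart MP41 at 24 h had 1 DMSO library, replicate 3, against 3 treated ones. The spread in those MP41 values came from the other groups in the fit, and the lone library was assumed to vary like them. Melanocyte genes marked all lines: the 8 fixed markers summed to 15200 to 21300 CPM in 92-1 DMSO libraries, 7950 to 9980 in MEL202 and 12500 to 17000 in MP41. After 24 h of FHT-1015 the sums were 4970 to 5270, 2960 to 3320 and 5910 to 6410, and after 24 h of IDE196 in 92-1 17500 to 19500. Already at 4 h FHT-1015 lowered 4 of the 7 markers tested in 92-1, 1 of 8 in MEL202 and 1 of 8 in MP41. The shares of all genes called lower there were 16.7%, 0.522% and 0.154%. IDE196 lowered 1 of 7 at 4 h (9.3%). No fibroblast, epithelial, leukocyte or endothelial marker exceeded the 38.7 CPM of COL3A1 in any library. The 5 fibroblast markers summed to 5.92 to 7.58 CPM in MEL202 DMSO 24 h libraries and to 34.6 to 42.9 CPM after 24 h of FHT-1015, where COL3A1 was called higher (log2 change 2.87, SE 0.29, adjusted p = 2.37e-05 by edgeR). In MP41 the sums at 24 h were 28.4 to 41.6 CPM in DMSO and 31 to 42.2 CPM with the drug. Of the fibroblast markers tested at 24 h, 1 of 3 was called in MEL202 and 0 of 4 in MP41. In 92-1 with FHT-1015 COL1A1 was called higher (1.92) and LUM lower (-1.84), with 2 tested, and with IDE196 COL1A1 was called higher (0.80), 1 of 4. Of the epithelial, leukocyte and endothelial markers tested 2 were called, PTPRC lower in MEL202 (-3.20) and VWF lower in MP41 (-2.11), both at 24 h.

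The promoters of the genes are shown first, as a description. RefSeq (GRCh38.p14) gave a window from 250 bases before to 50 bases after the start for 35 of the 42 genes. The letters CACGTG, which read alike on both strands, stood in 16 of these 35 windows (45.7%), against 8.77% of 27305 genes with a window and 10.9% of 15843 protein-coding genes. The 16 were BYSL, DDX21, FBL, GAR1, GNL3, MRTO4, NOC3L, NOP10, NOP14, NOP2, PES1, PNO1, RRP9, UTP20, UTP4 and WDR43. Each had a copy within 40 bases of the start, and in 5 of them that copy began before it. In RRP9 it begins at position -5 and ends on the first transcribed base. A gene with several windows was counted if any of them held the letters. These 5 are printed below from 80 bases before the start to the first transcribed base, with CACGTG in capitals. DDX21 had 2 windows, and the one printed was picked for holding CACGTG.
NOP10: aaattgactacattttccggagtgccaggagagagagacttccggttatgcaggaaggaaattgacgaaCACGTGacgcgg
UTP4: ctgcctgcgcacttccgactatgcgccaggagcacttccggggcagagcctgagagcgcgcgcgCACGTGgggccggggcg
UTP20: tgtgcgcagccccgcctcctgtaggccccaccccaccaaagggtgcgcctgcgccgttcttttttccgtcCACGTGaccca
RRP9: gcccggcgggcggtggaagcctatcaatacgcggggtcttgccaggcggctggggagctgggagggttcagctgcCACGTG
DDX21: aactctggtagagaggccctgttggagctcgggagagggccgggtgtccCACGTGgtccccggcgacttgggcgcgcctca
The stretches lie at chr15:34343136-34343216 (minus strand, NOP10), chr16:69132569-69132649 (plus, UTP4), chr12:101280025-101280105 (plus, UTP20), chr3:51941904-51941984 (minus, RRP9) and chr10:68956567-68956647 (plus, DDX21). The same stretch is given for NOP16, which had the deepest called fall of the 42 genes in the main read counts, and for TAF1D, which rose with IDE196. Neither window holds CACGTG. Another way of counting, which takes in reads of neighbouring genes, gave NOP16 smaller falls, as described below.
NOP16: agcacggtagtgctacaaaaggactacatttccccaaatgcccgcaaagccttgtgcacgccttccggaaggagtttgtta
TAF1D: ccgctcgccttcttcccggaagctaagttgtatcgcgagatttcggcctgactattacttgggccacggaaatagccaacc
They lie at chr5:176388598-176388678 (minus, NOP16) and chr11:93741495-93741575 (minus, TAF1D). The ETS letters CCGGAAG, searched on both strands, were in 14 of the 35 windows and in 16.5% of protein-coding genes. The letters TATAAA were in 1 window, that of UTP20, and the YY1 and NRF1 motifs in 1 and 2, all searched on both strands. A run of letters is a description and does not show that a factor binds there.

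In 92-1 cells with FHT-1015 the members called at 4 h were all higher and those called at 24 h all lower. At 4 h edgeR called 19 of the 42 higher, where 12.9% of all genes tested were called higher, and 0 lower, where 16.7% were called lower (29.5% together). DESeq2 also called 0 lower and limma's voom fit called 1, and in edgeR 21 members were higher and 1 lower at an unadjusted p below 0.05. The count of 19 was 12 without DMSO 4 h replicate 3. The median log2 fold change of the 42 was 0.23, beside 0.0071 for all genes. At 24 h 35 were called lower (background 31.4%) and 0 higher (29.2%, or 60.6% together), with a median of -0.78. The same 17 genes rose at 4 h and fell at 24 h, a double call made for 3.04% of all genes. The opposite order, lower and then higher, was called for 0 of the 42 and for 2.81% of all genes.

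MEL202 and MP41 cells gave falls of the same kind at 24 h. In MEL202 29 genes fell (background 10.1%) and 0 rose (8.69%, or 18.8% together), with a median of -1.10. In MP41 21 fell (18.7%) and 0 rose (17.4%, or 36.1% together), with a median of -0.47. Without the libraries that stood apart the counts of falls were 33 in MEL202 and, against 1 DMSO library, 28 in MP41, where the median was -0.68. Rises at 24 h with an unadjusted p below 0.05 numbered 0 in 92-1, 0 in MEL202 and 1 in MP41, DESeq2 called 0, 0 and 1 higher, and voom 1, 1 and 2. At 4 h edgeR called 0 genes in either line, against a background of 0.157% higher and 0.522% lower in MEL202 (0.679% together) and of 0.0708% higher and 0.154% lower in MP41 (0.225% together). Unadjusted p-values below 0.05 numbered 3 in MEL202 and 6 in MP41 at that time, all on rises. DESeq2 called 0 and 1 and voom 0 and 3, all of them higher. The medians at 4 h were 0.14 and 0.15.

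The 18 genes that fell in all 3 lines at 24 h were BOP1, BYSL, DDX21, DKC1, MRTO4, NCL, NIP7, NOLC1, NOP14, NOP16, NOP56, PES1, POLR1B, RRP9, RRS1, UTP20, UTP4 and WDR43. Such a fall in all 3 lines was called for 7.65% of the genes tested in each line. No member rose in all 3, a call made for 5.04% of genes. Without the libraries that stood apart, and so with 1 DMSO library in MP41, 27 genes fell in all 3 lines, among them 17 of these 18, all but BOP1, and in addition DDX10, DDX18, GAR1, GNL3, NOC3L, NOP58, PNO1, UTP15, WDR12 and WDR75.

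With IDE196 falls were called at both times. At 4 h 29 of the 42 fell (background 9.3%) and 0 rose (6.89%, or 16.2% together). DESeq2 and voom also called 0 higher, and at an unadjusted p below 0.05 edgeR had 0 higher and 35 lower. The median was -0.51. At 24 h 37 fell (29.4%), TAF1D rose (28.7%, or 58.1% together), and the median was -1.25. All 29 early falls were still called at 24 h, a double call made for 7.96% of all genes. At 4 h 15 genes rose with FHT-1015 and fell with IDE196, which was true of 2.07% of all genes, and all 15 were lower with both drugs at 24 h. They were GAR1, GNL3, HEATR1, MRTO4, NOC3L, NOP16, NOP56, PES1, PNO1, POLR1B, POLR1C, RRP12, RRP9, WDR12 and WDR75. At 24 h 35 genes fell with both drugs (20.1%).

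**Figure D1:**
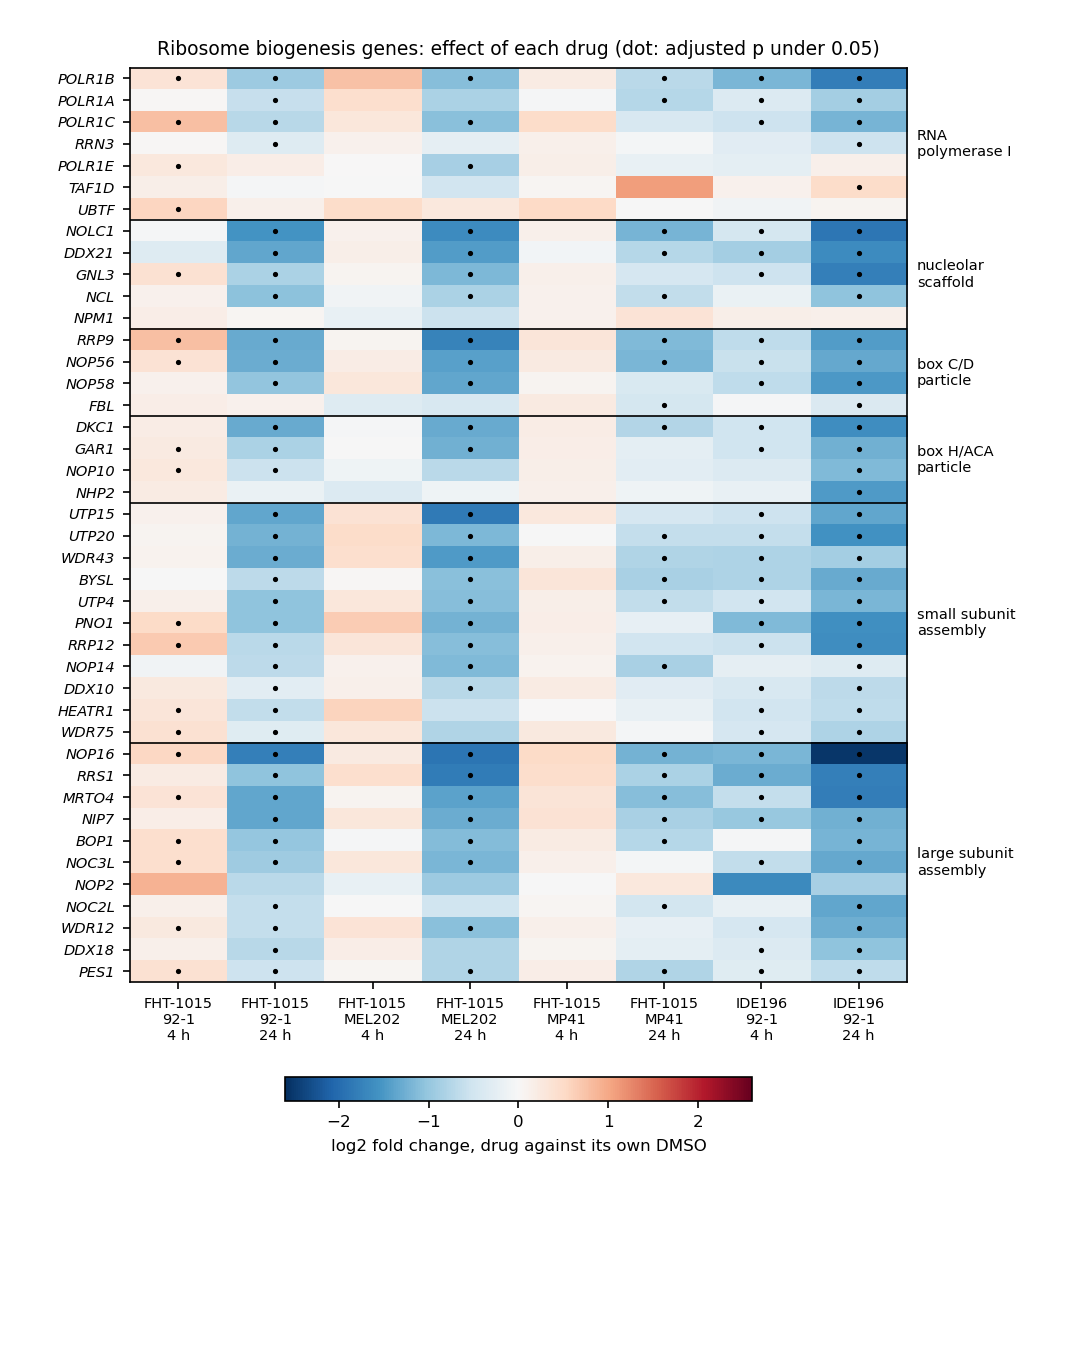
Log2 fold change against DMSO of the 42 genes (rows, grouped by role) in the 8 drug comparisons (columns), with a dot where the edgeR adjusted p was below 0.05. The 92-1 4 h column of FHT-1015 holds 19 dots on rises, while the 24 h columns of both drugs are mostly falls, 35 and 37 of them in 92-1.

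**Figure D2:**
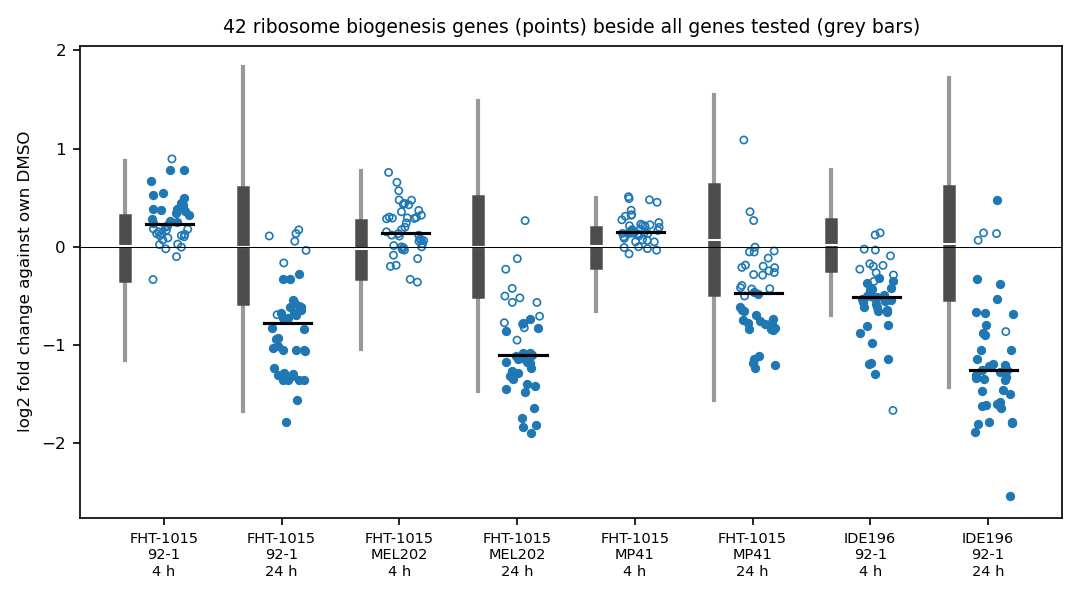
Log2 fold change of each member (points, filled where called, black line at their median) beside all genes tested (grey bars, thick from the 25th to the 75th percentile and thin from the 5th to the 95th, white tick at the median) in each comparison. The member median lies at 0.23 in 92-1 after 4 h of FHT-1015 and at -0.78 after 24 h, and at -0.51 and -1.25 with IDE196, while the medians of all genes lie near 0.

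The RNA polymerase I group holds POLR1A and POLR1B, the large catalytic subunits, POLR1C, a subunit shared with RNA polymerase III, and POLR1E, an accessory subunit. RRN3 links the polymerase to its promoter, UBTF binds the ribosomal DNA, and TAF1D belongs to the promoter selectivity factor SL1. Of its 7 genes FHT-1015 raised 4 in 92-1 at 4 h and lowered 4 there at 24 h, 3 in MEL202 and 2 in MP41, and IDE196 lowered 3 at 4 h and 4 at 24 h. Of all genes tested FHT-1015 raised 12.9% in 92-1 at 4 h and lowered 31.4%, 10.1% and 18.7% at 24 h in 92-1, MEL202 and MP41, and IDE196 lowered 9.3% and 29.4%. These shares also stand behind the counts of the other role groups.

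POLR1C read 47.5, 47 and 44.2 CPM in the 92-1 DMSO 4 h libraries and 71.9, 78.8 and 87.4 after 4 h of FHT-1015, a log2 fold change of 0.78 (SE 0.087, adjusted p = 6.91e-06 by edgeR). At 24 h the DMSO libraries read 47.4, 52.2 and 48.7 CPM and the treated ones 29.4, 30.5 and 29.6, a change of -0.73 (SE 0.09, adjusted p = 4.37e-06 by edgeR). All treated libraries lay above DMSO at 4 h and below it at 24 h. IDE196 gave 14.2, 19.3 and 17.1 CPM at 4 h against 21.3, 23.7 and 28.5 in its DMSO group, a change of -0.54 (SE 0.14, adjusted p = 0.0161 by edgeR). That call was lost without DMSO replicate 6 and without IDE196 replicate 1 (edgeR adjusted p 0.0831 and 0.086). Exons of POLR1C overlap LRRC73, YIPF3 and XPO5 on the other strand. Counted from both strand-specific columns of these libraries without strand marking, POLR1C also takes in reads of those neighbours from the overlap. The log2 changes were then 0.48 and -0.42 with FHT-1015 at the 2 times and -0.28 with IDE196 at 4 h, and each was still called.

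POLR1B rose in 92-1 at 4 h, from 58.6, 51.5 and 56.9 CPM in DMSO to 81.9, 67.4 and 65.4, by 0.36 (SE 0.10, adjusted p = 0.0111 by edgeR). In MEL202 the values were 59.5, 67.2 and 35.4 CPM in DMSO and 99.3, 84.6 and 90.1 with the drug at 4 h, a log2 change of 0.76 (SE 0.24, adjusted p = 0.247 by edgeR), and in MP41 they were 88.6, 86.8 and 85.9 in DMSO and 86.6, 114 and 102 with the drug, a change of 0.21 (SE 0.18, adjusted p = 1 by edgeR). The treated libraries lay above DMSO in 92-1 and MEL202 and overlapped it in MP41, and neither of the last changes was called. POLR1B fell at 24 h, with log2 changes of -0.94, -1.11 and -0.70 in 92-1, MEL202 and MP41 (edgeR adjusted p = 1.1e-06, 0.00551 and 0.00772). IDE196 lowered it too, with -1.19 at 4 h and -1.79 at 24 h (edgeR adjusted p = 8.62e-06 and 8.31e-09).

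UBTF rose in 92-1 at 4 h (log2 change 0.55, SE 0.086, adjusted p = 0.000175 by edgeR) and was not called at 24 h (0.14) or with IDE196 (-0.092 and 0.067). POLR1A fell at 24 h in 92-1 (-0.60), MP41 (-0.75) and with IDE196 (-0.88), and its MEL202 value of -0.82 was not called. RRN3 fell in 92-1 with each drug at 24 h (-0.33 with FHT-1015 and -0.53 with IDE196).

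TAF1D was the single member called higher with IDE196. The 24 h DMSO libraries read 102, 109 and 109 CPM and the IDE196 libraries 143, 160 and 142, a log2 change of 0.48 (SE 0.083, adjusted p = 9.24e-05 by edgeR), and the groups did not overlap. In the DMSO libraries beside FHT-1015, also 92-1 cells, TAF1D read 200, 190 and 176 CPM at 4 h and 184, 198 and 204 at 24 h, above every DMSO library beside IDE196. The exons of TAF1D carry several small nucleolar RNAs and overlap CEP295, C11orf54 and MED17. In MP41 at 24 h the DMSO libraries read 28.9, 20.4 and 98.9 CPM, with the low values in both libraries that stood apart, and the treated ones 84.8, 110 and 121. The change there of 1.09 was not called (edgeR adjusted p = 0.0544) and was 0.075 against the 1 DMSO library that remained without them.

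The scaffold and chaperone group consists of NCL (nucleolin) and NPM1 (nucleophosmin), abundant nucleolar RNA-binding proteins, NOLC1, which shuttles small nucleolar ribonucleoproteins, GNL3 (nucleostemin), a GTPase, and DDX21, an RNA helicase. Of these 5, FHT-1015 lowered 4 in 92-1, 4 in MEL202 and 3 in MP41 at 24 h, and IDE196 lowered 3 at 4 h and 4 at 24 h. GNL3 alone rose at 4 h in 92-1 (log2 change 0.39, SE 0.08, adjusted p = 0.00179 by edgeR).

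NOLC1 fell in every line at 24 h. In 92-1 at 24 h it read 431, 398 and 376 CPM in DMSO and 135, 138 and 136 with FHT-1015 (log2 change -1.56, SE 0.087, adjusted p = 6.99e-10 by edgeR). In MEL202 the same groups read 314, 339 and 321 CPM in DMSO and 108, 104 and 101 with the drug (log2 change -1.64, SE 0.18, adjusted p = 4.85e-05 by edgeR), and in MP41 338, 347 and 361 CPM in DMSO and 170, 140 and 146 with the drug (log2 change -1.20, SE 0.12, adjusted p = 5.78e-06 by edgeR). Every treated library lay well below every DMSO library of its line. At 4 h the drug changed NOLC1 by -0.021, 0.12 and 0.14 in the 3 lines, none of them called. In MEL202 the 4 h libraries read 370, 349 and 263 CPM in DMSO and 379, 345 and 343 with the drug, and in MP41 364, 360 and 360 CPM in DMSO and 396, 389 and 406 with the drug. IDE196 lowered NOLC1 at 4 h, from 404, 422 and 418 to 290, 303 and 309 CPM (log2 change -0.46, SE 0.072, adjusted p = 0.000218 by edgeR), and further at 24 h, from 431, 434 and 410 to 117, 113 and 115 CPM (log2 change -1.89, SE 0.075, adjusted p = 4.87e-12 by edgeR). The deepening between the times was -1.42 (SE 0.10, adjusted p = 4.4e-08 by edgeR).

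NPM1, the member with the highest level per length, was never called. Its mean in the DMSO groups was 431 CPM per kb (range of group means 338 to 526), followed by NCL with 215 CPM per kb. After 24 h of FHT-1015 NPM1 read 2200, 2040 and 1970 CPM in 92-1, beside 2230, 1840 and 1900 in DMSO, a log2 change of 0.057 (SE 0.087, adjusted p = 0.589 by edgeR), and the groups overlapped. In MEL202 it read 1680, 1180 and 1380 CPM in DMSO and 956, 932 and 968 with the drug at 24 h, all treated libraries below DMSO, with a change of -0.57 (SE 0.31, adjusted p = 0.24 by edgeR). In MP41 the change was 0.36 and with IDE196 0.14, both with overlap. GENCODE lists 45 pseudogenes named after NPM1, whose reads may be shared with it. NCL fell with FHT-1015 at 24 h, with log2 changes of -1.06, -0.83 and -0.65 in 92-1, MEL202 and MP41, and with IDE196 at 24 h (-1.05). DDX21, whose promoter is among those printed, had log2 changes of -1.35, -1.45 and -0.75 in the lines at 24 h and of -0.88 and -1.64 with IDE196 at 4 and 24 h, all called.

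Box C/D particles guide methylation of ribosomal RNA. NOP56 and NOP58 form their core, FBL (fibrillarin) is the methyltransferase, and RRP9 is a protein of the U3 particle, which takes part in early cleavage of the precursor. FHT-1015 raised 2 of the 4 in 92-1 at 4 h, NOP56 and RRP9, and lowered 3 in each line at 24 h, NOP56 and RRP9 together with NOP58 in 92-1 and MEL202 and with FBL in MP41. IDE196 lowered 3 at 4 h and all 4 at 24 h.

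RRP9 had the largest called rise and one of the widest swings. In 92-1 at 4 h the DMSO libraries read 35.8, 35.4 and 34.3 CPM and the FHT-1015 libraries 55.2, 57.6 and 69.1, a rise of 0.78 (SE 0.10, adjusted p = 1.98e-05 by edgeR). At 24 h they read 33.6, 35.5 and 31.5 CPM in DMSO and 14.3, 13.6 and 12.6 with the drug, a change of -1.32 (SE 0.11, adjusted p = 3.8e-08 by edgeR). The treated libraries lay wholly above DMSO at 4 h and wholly below it at 24 h, and the difference between the times was -2.10 (SE 0.14, adjusted p = 3.49e-08 by edgeR). In MEL202 RRP9 read 61.9, 37.5 and 53 CPM in DMSO and 14.9, 13.3 and 17.5 with the drug at 24 h (log2 change -1.74, SE 0.26, adjusted p = 0.000451 by edgeR), and in MP41 62.9, 67 and 48.1 CPM in DMSO and 30.2, 24.6 and 25.7 with the drug (log2 change -1.14, SE 0.16, adjusted p = 0.000121 by edgeR). The MP41 fall was -0.86 without the libraries that stood apart, against 1 DMSO library. IDE196 lowered RRP9 at 4 h from 24, 29.6 and 27 to 15, 17.5 and 18.4 CPM (log2 change -0.67, SE 0.12, adjusted p = 0.00089 by edgeR), the opposite of the early FHT-1015 change, and again at 24 h (-1.46).

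NOP56 read 309, 284 and 267 CPM in DMSO and 339, 380 and 397 with FHT-1015 in 92-1 at 4 h (log2 change 0.37, SE 0.085, adjusted p = 0.00347 by edgeR), and 329, 319 and 300 CPM in DMSO and 121, 138 and 129 with the drug at 24 h (log2 change -1.29, SE 0.087, adjusted p = 5.27e-09 by edgeR). Neither pair of groups overlapped, and the difference between the times was -1.66 (SE 0.12, adjusted p = 6.05e-08 by edgeR). At 24 h NOP56 fell in MEL202 from 232, 164 and 195 to 68.5, 77.4 and 75.5 CPM (log2 change -1.42, SE 0.21, adjusted p = 0.000447 by edgeR) and in MP41 from 306, 288 and 297 to 134, 124 and 135 CPM (log2 change -1.18, SE 0.12, adjusted p = 6.57e-06 by edgeR). At 4 h in MP41 the libraries read 264, 247 and 260 CPM in DMSO and 319, 274 and 312 with the drug, all treated ones higher, although the change of 0.23 was not called. NOP58 fell at 24 h in 92-1 (-1.03) and MEL202 (-1.35), and its MP41 value of -0.39 was not called but was -0.79 without the libraries that stood apart, against 1 DMSO library (edgeR adjusted p = 0.000149). FBL, the enzyme of the particle, fell at 24 h in MP41 (log2 change -0.46, SE 0.15, adjusted p = 0.0296 by edgeR) and with IDE196 (-0.38), and against the 1 DMSO library that remained without them the MP41 value was -0.10 and was not called (edgeR adjusted p = 0.604).

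**Figure D3:**
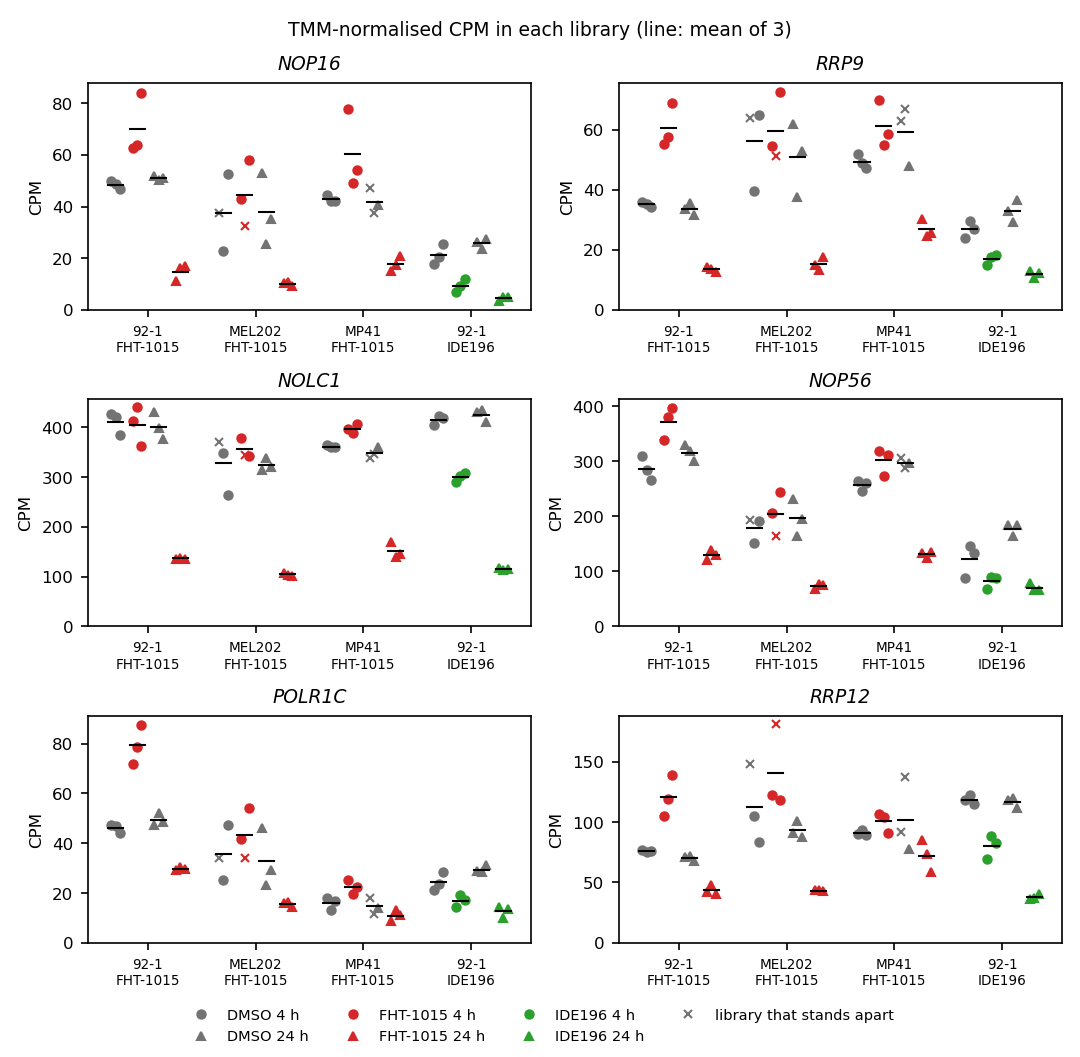
CPM of NOP16, RRP9, NOLC1, NOP56, POLR1C and RRP12 in every library (points, lines at the mean of 3, crosses for the libraries that stood apart) by line, drug and time. RRP9 in 92-1 lies at 55.2 to 69.1 CPM after 4 h of FHT-1015 and at 12.6 to 14.3 after 24 h, with its DMSO libraries at 31.5 to 35.8.

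Box H/ACA particles turn uridines of ribosomal RNA into pseudouridine, with DKC1 as the enzyme and NHP2, GAR1 and NOP10 as its partners. In 92-1 FHT-1015 raised GAR1 and NOP10 at 4 h and lowered 3 of the 4 at 24 h, all but NHP2. It lowered DKC1 and GAR1 in MEL202 and DKC1 alone in MP41. IDE196 lowered DKC1 and GAR1 at 4 h and all 4 at 24 h.

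DKC1 read 225, 207 and 209 CPM in 92-1 DMSO and 87.3, 89.2 and 82.5 with FHT-1015 at 24 h (log2 change -1.31, SE 0.076, adjusted p = 1e-09 by edgeR). At 4 h it read 221, 232 and 207 CPM in DMSO and 253, 261 and 244 with the drug (log2 change 0.20, SE 0.074, adjusted p = 0.0522 by edgeR), with all treated libraries above DMSO but no call. The difference between the times was -1.51 (SE 0.10, adjusted p = 4.2e-08 by edgeR). NHP2 set the drugs apart: at 24 h FHT-1015 libraries of 92-1 read 116, 91 and 86.2 CPM against 105, 110 and 114 in DMSO, while IDE196 libraries read 45.6, 42.6 and 40.5 CPM against 113, 120 and 123. The first pair overlapped and gave -0.16 (SE 0.12, adjusted p = 0.232 by edgeR), and the second did not overlap and gave -1.47 (SE 0.12, adjusted p = 1.67e-08 by edgeR). NHP2 shares exon sequence on the other strand with RMND5B. GAR1 and NOP10, whose promoters hold CACGTG, fell with IDE196 at 24 h, with log2 changes of -1.25 and -1.15.

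The small subunit group holds UTP4, UTP15, UTP20, WDR43, WDR75, HEATR1 and NOP14, parts of the processome that assembles on the nascent precursor. DDX10 is a helicase, BYSL and PNO1 accompany the small subunit through its maturation, and RRP12 is needed for its late processing and export. FHT-1015 raised 4 of these 11 in 92-1 at 4 h (PNO1, RRP12, WDR75 and HEATR1). It lowered all 11 in 92-1, 9 in MEL202 and 5 in MP41 at 24 h, the last being UTP4, UTP20, WDR43, NOP14 and BYSL. IDE196 lowered 10 at 4 h, all but NOP14, and all 11 at 24 h.

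RRP12 showed opposite early responses to the drugs. With FHT-1015 at 4 h it read 105, 119 and 139 CPM in 92-1, above the 76.6, 75 and 75.9 of DMSO (log2 change 0.67, SE 0.10, adjusted p = 8.42e-05 by edgeR), and with IDE196 it read 69.7, 88.8 and 83 CPM, below the 118, 122 and 115 of its DMSO group (log2 change -0.56, SE 0.091, adjusted p = 0.000313 by edgeR). At 24 h FHT-1015 libraries read 42.1, 47.5 and 40.7 CPM against 71.4, 71.6 and 67.8 (log2 change -0.70, SE 0.10, adjusted p = 1.98e-05 by edgeR) and IDE196 libraries 36.6, 37.3 and 40.5 CPM against 118, 120 and 112 (log2 change -1.61, SE 0.094, adjusted p = 2.92e-10 by edgeR). None of these 4 pairs of groups overlapped. PNO1 moved the same way at 4 h. FHT-1015 libraries read 41.9, 41.6 and 39.7 CPM at 4 h against 31.6, 28.4 and 27.7 (log2 change 0.49, SE 0.11, adjusted p = 0.00254 by edgeR), and IDE196 libraries 8.83, 10.4 and 10.4 CPM against 18.2, 23.6 and 23.5 (log2 change -1.14, SE 0.13, adjusted p = 1.33e-05 by edgeR). At 24 h PNO1 was lower with each drug, with log2 changes of -1.04 for FHT-1015 and -1.60 for IDE196.

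WDR43 read 96.7, 131 and 124 CPM in MEL202 DMSO and 178, 130 and 165 with FHT-1015 at 4 h, and 116, 135 and 125 CPM in DMSO and 45.8, 44.6 and 45 with the drug at 24 h. The 4 h groups overlapped (log2 change 0.43, SE 0.19, adjusted p = 0.542 by edgeR), the 24 h groups did not (log2 change -1.48, SE 0.19, adjusted p = 0.000165 by edgeR), and the difference between the times was -1.90 (SE 0.27, adjusted p = 0.00117 by edgeR). WDR43 also fell at 24 h in 92-1 (-1.29) and MP41 (-0.79). UTP20 and UTP4, with their CACGTG letters shown above, fell in all lines at 24 h. Their log2 changes were -1.23 and -1.05 in 92-1, -1.17 and -1.10 in MEL202, and -0.61 and -0.65 in MP41. BYSL had called changes of -0.68, -1.08 and -0.84 and NOP14 of -0.67, -1.14 and -0.85 in the same order. DDX10, WDR75 and HEATR1 had called changes at 24 h in 92-1 of -0.28, -0.32 and -0.65.

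The large subunit group holds BOP1, PES1 and WDR12, which form the PeBoW complex, RRS1, which helps to place the 5S particle, and NOC2L and NOC3L, which accompany the precursor out of the nucleolus. NOP16, NIP7, MRTO4 and the helicase DDX18 act in assembly of the large subunit, and NOP2 methylates its ribosomal RNA. FHT-1015 raised 6 of these 11 in 92-1 at 4 h (NOP16, BOP1, PES1, WDR12, NOC3L and MRTO4) and lowered 10 there at 24 h, all but NOP2. It lowered 8 in MEL202 and 7 in MP41. IDE196 lowered 8 at 4 h and 10 at 24 h.

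NOP16, on chromosome 5 (GRCh38, 176383938 to 176388975, minus strand), had the largest called fall in each line at 24 h. In 92-1 it read 51.8, 50.2 and 51.1 CPM in DMSO and 11.1, 16.2 and 17 with FHT-1015 (log2 change -1.79, SE 0.14, adjusted p = 4.29e-08 by edgeR), in MEL202 52.9, 25.4 and 35.3 CPM in DMSO and 10.2, 10.9 and 9.41 with the drug (log2 change -1.90, SE 0.34, adjusted p = 0.00151 by edgeR), and in MP41 47, 37.5 and 40.4 CPM in DMSO and 14.9, 17.5 and 20.7 with the drug (log2 change -1.23, SE 0.19, adjusted p = 0.000221 by edgeR). Treated and DMSO libraries were apart in every line. At 4 h in 92-1 NOP16 rose, from 49.7, 48.9 and 46.8 to 62.5, 63.9 and 84 CPM (log2 change 0.53, SE 0.13, adjusted p = 0.00691 by edgeR). IDE196 lowered it at 4 h from 17.6, 20.6 and 25.4 to 6.99, 9.19 and 12 CPM (log2 change -1.18, SE 0.18, adjusted p = 0.000154 by edgeR) and at 24 h from 26.1, 23.7 and 27.5 to 3.51, 5.06 and 4.81 CPM (log2 change -2.54, SE 0.19, adjusted p = 6.05e-09 by edgeR). All these groups were separate as well.

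The size of the NOP16 change depended on how reads were counted. Its exons overlap ARL10 and HIGD2A on the other strand. The kit marks no strand, so the sum of both strand-specific columns also takes in reads of these neighbours from the overlap. The unstranded column leaves such reads out. That sum gave log2 changes of -0.44, -0.77 and -0.53 at 24 h in 92-1, MEL202 and MP41, the MEL202 one with an edgeR adjusted p of 0.0749. With IDE196 that sum gave -0.45 and -0.58 at 4 and 24 h, and with FHT-1015 at 4 h a rise of 0.33. The direction held in each comparison. NOLC1, with no overlapping exons, gave -1.56, -1.65 and -1.18 from the same columns. These are larger falls than that sum gave for NOP16, where the part of the neighbours was not tested.

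MRTO4, related to the ribosomal stalk protein P0, fell in all lines. In 92-1 at 24 h it read 125, 112 and 108 CPM in DMSO and 46, 45.6 and 43.1 with FHT-1015 (log2 change -1.36, SE 0.10, adjusted p = 2.31e-08 by edgeR), in MEL202 118, 81.8 and 91.1 CPM in DMSO and 38.2, 37.7 and 34.6 with the drug (log2 change -1.39, SE 0.22, adjusted p = 0.000645 by edgeR), and in MP41 113, 111 and 101 CPM in DMSO and 47.7, 54.6 and 48.1 with the drug (log2 change -1.11, SE 0.15, adjusted p = 9.86e-05 by edgeR). No treated library reached a DMSO library. At 4 h in MP41 MRTO4 read 123, 114 and 109 CPM in DMSO and 178, 122 and 134 with the drug, a difference of 0.33 that was not called. NIP7 at 24 h read 108, 95.6 and 90.5 CPM in DMSO and 42.1, 35.7 and 37 with the drug in 92-1 (log2 change -1.35, SE 0.10, adjusted p = 9.58e-09 by edgeR), 71.9, 57.2 and 61.4 CPM in DMSO and 24, 27 and 27.4 with the drug in MEL202 (log2 change -1.28, SE 0.20, adjusted p = 0.000645 by edgeR), and 35.4, 31 and 37.2 CPM in DMSO and 16.6, 20.5 and 20.8 with the drug in MP41 (log2 change -0.84, SE 0.15, adjusted p = 0.000734 by edgeR). These groups too were separate.

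RRS1 had the largest called fall with IDE196 at 4 h, from 50.7, 67.5 and 63.9 to 22.8, 23.7 and 27.7 CPM (log2 change -1.30, SE 0.14, adjusted p = 6.09e-06 by edgeR), with no overlap. BOP1 was late with IDE196. It read 339, 333 and 317 CPM in DMSO and 312, 303 and 352 with the drug at 4 h (log2 change -0.033, SE 0.08, adjusted p = 0.845 by edgeR, overlapping), and 365, 330 and 350 CPM in DMSO and 155, 149 and 150 with the drug at 24 h (log2 change -1.20, SE 0.082, adjusted p = 1.76e-09 by edgeR, separate). NOC2L read 209, 221 and 211 CPM in DMSO and 173, 194 and 194 with the drug at 4 h (log2 change -0.19, SE 0.08, adjusted p = 0.125 by edgeR, separate but not called) and 227, 223 and 211 CPM in DMSO and 92.2, 82.3 and 85.9 with the drug at 24 h (log2 change -1.34, SE 0.081, adjusted p = 4.65e-10 by edgeR, separate). The differences between the times were -1.17 (SE 0.11, adjusted p = 1.01e-06 by edgeR) for BOP1 and -1.16 (SE 0.11, adjusted p = 1.04e-06 by edgeR) for NOC2L. PES1 and WDR12, the partners of BOP1, fell with IDE196 at each time, with log2 changes of -0.32 and -0.67 for PES1 and of -0.44 and -1.27 for WDR12. DDX18 and NOC3L also fell at 24 h in 92-1, with log2 changes of -0.72 and -0.93 for FHT-1015 and -1.05 and -1.32 for IDE196. NOP2 had the lowest level of the 42, a mean of 0.102 CPM per kb in DMSO groups, and was called in no comparison with DMSO. It shares exons on its own strand with AC006064.6, and the part of that overlap in its low count was not tested. At such a level its values carry little, among them a called drug difference at 4 h of 2.56 (edgeR adjusted p = 0.0399).

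The change from 4 h to 24 h was tested as a difference of the effects at each time. In 92-1 with FHT-1015 36 of the 42 genes were called, all toward lower values (background 45.5%, made up of 24.3% lower and 21.1% higher). In MEL202 the count was 21 (6.89%, with 3.9% lower and 3% higher) and in MP41 17 (18.6%, with 10.9% lower and 7.73% higher), again all lower, and without the libraries that stood apart it was 29 in each, in MP41 with 1 DMSO library at 24 h. The MEL202 count dropped to 13, 13 and 12 when the FHT-1015 24 h replicates 1, 2 and 3 were left out in turn. The MP41 count was 10 and 11 without the DMSO 4 h replicates 2 and 3, 11 without the DMSO 24 h replicate 1 or the FHT-1015 24 h replicate 3, and 27 without the DMSO 24 h replicate 2. Besides the genes above, RRS1 had one of the smallest p-values in MEL202. It read 70.3, 47.8 and 82.4 CPM in DMSO and 88.4, 91.2 and 92.8 with the drug at 4 h, and 71.2, 45.2 and 57.6 CPM in DMSO and 16.2, 18.4 and 15.2 with the drug at 24 h, a difference of effects of -2.25 (SE 0.33, adjusted p = 0.00131 by edgeR). NOLC1 gave -1.76 (MEL202) and -1.34 (MP41, edgeR adjusted p = 0.0013 and 0.00015), and in that line NOP56 gave -1.41 and MRTO4 -1.44 (edgeR adjusted p = 1e-04 and 0.000569). With IDE196 31 genes were called (30.7%, with 17.2% lower and 13.5% higher), 29 of them lower at 24 h than at 4 h, and POLR1E and TAF1D were the 2 higher ones (0.40 and 0.36).

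The FHT-1015 effect was compared between the lines for each gene. At 4 h edgeR called 0 of the 42 (background 1.38%) and DESeq2 also called 0, with 1 gene at an unadjusted p below 0.05. RRP9, FBL and POLR1B had the smallest p-values, with edgeR adjusted p = 0.411, 0.611 and 0.672. In MEL202 at 4 h RRP9 read 64, 39.7 and 65 CPM in DMSO and 54.5, 51.4 and 72.7 with the drug, overlapping, and in MP41 51.8, 48.8 and 47.4 CPM in DMSO and 70.1, 54.9 and 58.6 with the drug, treated higher. FBL read 354, 343 and 306 CPM in DMSO and 374, 345 and 409 with the drug in 92-1, 282, 148 and 285 in DMSO and 171, 164 and 233 with the drug in MEL202, and 105, 98.2 and 106 in DMSO and 130, 117 and 114 with the drug in MP41, with overlap in the first pair of lines and higher treated values in MP41.

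At 24 h 4 of the 42 were called as different between the lines, a share below the 12% of all genes, namely POLR1E, RRS1, UTP15 and NOP58. POLR1E fell in MEL202, from 59.3, 62.5 and 62.5 to 32.1, 35 and 34.4 CPM. In 92-1 it read 47, 43.6 and 47.8 CPM in DMSO and 57, 49.4 and 49.6 with the drug, and in MP41 64.4, 56.2 and 61 in DMSO and 55.5, 55.9 and 48.1 with the drug. The treated libraries lay above DMSO in 92-1 and below it in MP41. Its changes were -0.86 in MEL202, where it was called, and 0.17 and -0.19 in 92-1 and MP41, where it was not (difference by edgeR, adjusted p = 3.2e-05). RRS1 fell in all lines, from 64.2, 75.3 and 77.6 to 35.3, 37.8 and 31.9 CPM in 92-1, from the values above in MEL202, and from 108, 117 and 96 to 60.2, 63.2 and 56.8 CPM in MP41. The log2 change was -1.81 in MEL202, beside -1.05 in 92-1 and -0.83 in MP41 (difference by edgeR, adjusted p = 0.0164). UTP15 read 62.8, 52.4 and 55.3 CPM in DMSO and 22.8, 19.7 and 23.8 with the drug in 92-1, 37, 33.7 and 34.8 in DMSO and 11.3, 8.16 and 10.2 with the drug in MEL202, and 35, 17.5 and 58.4 in DMSO and 30.1, 24.7 and 28 with the drug in MP41. Its changes were -1.36, -1.83 and -0.43, and only in MP41 did the groups overlap, at its DMSO replicate 2 (edgeR adjusted p of the difference = 0.0261). NOP58 changed by -1.03, -1.35 and -0.39 in the same order, the last not called (edgeR adjusted p of the difference = 0.0405). Without the libraries that stood apart, and so against the 1 DMSO library at 58.4 CPM, the MP41 change of UTP15 was -1.10 (edgeR adjusted p = 2.89e-05), the differences of POLR1E, RRS1 and UTP15 were still called, and that of NOP58 was not (edgeR adjusted p = 0.0726), all with that lone library for MP41. The count of 4 was 12 without the MP41 DMSO 24 h replicate 3, 1 without the MEL202 DMSO 24 h replicate 1, and 2 without each MEL202 FHT-1015 24 h replicate, the MP41 DMSO 24 h replicate 2, or the MP41 FHT-1015 24 h replicates 1 or 3. The line difference of RRS1 lost its call without the MEL202 DMSO 24 h replicate 1 or the MEL202 FHT-1015 24 h replicates 1 or 3 (edgeR adjusted p 0.0533 to 0.0849). That of UTP15 lost it without the MEL202 DMSO 24 h replicate 1, the MEL202 FHT-1015 24 h replicate 2, the MP41 DMSO 24 h replicates 1 or 2, or the MP41 FHT-1015 24 h replicates 1 or 3 (0.0514 to 0.0718).

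In 92-1 cells the drug effects differed for more of these genes at 4 h than at 24 h. The FHT-1015 effect was above the IDE196 effect for 35 of the 42 genes at 4 h (background 24.6% in either direction and 10.7% higher) and below it for 0 (14%). At an unadjusted p below 0.05 it was above for 38 and below for 0, and DESeq2 called 36 genes in all. The 3 smallest p-values were those of PNO1, RRP12 and RRP9, whose libraries are given above, with differences of 1.63 (SE 0.17), 1.23 (SE 0.13) and 1.45 (SE 0.16) on the log2 scale (edgeR adjusted p = 5.85e-08, 7.36e-08 and 1.01e-07). At 24 h 21 genes were called (33%, with 15.9% higher and 17.1% lower). For 18 of them the FHT-1015 effect was above the IDE196 effect, and TAF1D, NOP14 and WDR43 went the other way (-0.51, -0.35 and -0.40). NHP2, RRP12 and NOC2L led, with differences of 1.30 (SE 0.18), 0.91 (SE 0.14) and 0.73 (SE 0.11) (edgeR adjusted p = 1.24e-06, 4.69e-06 and 1.14e-05). NOC2L read 157, 156 and 163 CPM in DMSO and 107, 108 and 95.6 with FHT-1015 at 24 h (log2 change -0.61, SE 0.085, adjusted p = 1.36e-05 by edgeR), without overlap. Doses are not stated in the labels used here, so the drugs were compared at matched times only. Each drug had DMSO libraries of its own, and at 4 h these differed for members named above. NOP16 and POLR1C read higher in the DMSO libraries beside FHT-1015 than in those beside IDE196, and RRP12 read lower. A difference between the drugs cannot be told apart from a difference between the sets of libraries.

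**Figure D4:**
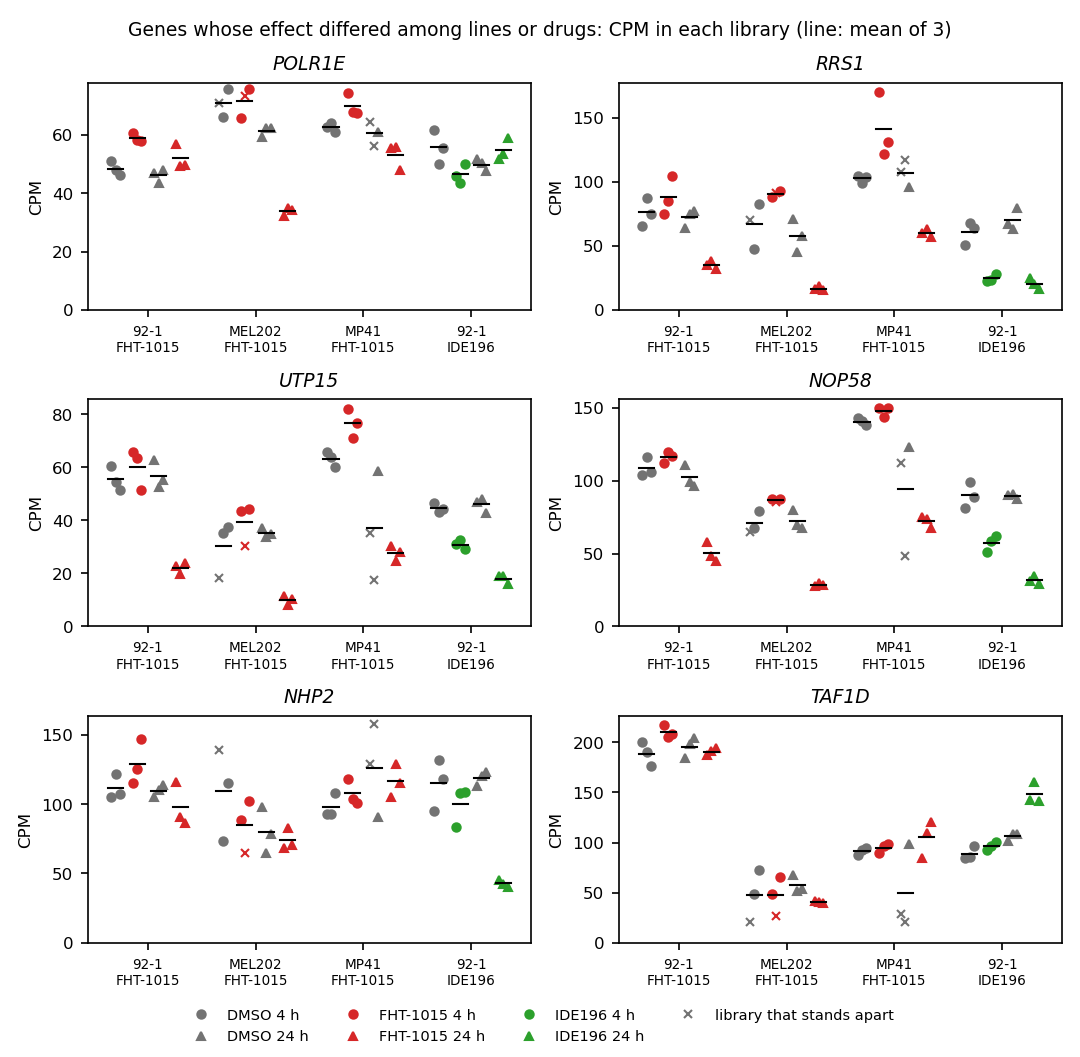
CPM of POLR1E, RRS1, UTP15, NOP58, NHP2 and TAF1D in every library (points, lines at the mean of 3, crosses for the libraries that stood apart) by line, drug and time. POLR1E drops to 32.1 to 35 CPM in MEL202 after 24 h of FHT-1015 but stays at 49.4 to 57 in 92-1, and NHP2 drops to 40.5 to 45.6 CPM with IDE196 at 24 h.

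Other genes of the pathway were called mostly higher at 4 h in 92-1 with FHT-1015 and mostly lower in every other comparison with calls. A list of 119 other ribosome biogenesis genes held further assembly factors, the remaining RNA polymerase I and III subunits and the RNA exosome. In 92-1 FHT-1015 raised 51 and lowered 2 of them at 4 h (median 0.25, background 12.9% higher and 16.7% lower) and raised 7 and lowered 99 at 24 h (median -0.66, background 29.2% and 31.4%). In MEL202 and MP41, with 119 and 118 tested, edgeR called 0 at 4 h (8 and 5 at an unadjusted p below 0.05, all higher), and 50 and 49 fell at 24 h (medians -0.75 and -0.41, background 10.1% and 18.7%), with 0 and 1 higher (0 and 6 unadjusted, background 8.69% and 17.4%). Without the libraries that stood apart the falls numbered 80 in MEL202 and 62 in MP41 and the rises 1 and 2, with 1 DMSO library in MP41. IDE196 lowered 65 of 118 at 4 h and 102 at 24 h, with 0 and 5 higher (1 and 5 unadjusted), against 9.3% and 29.4% of all genes lower and 6.89% and 28.7% higher. The largest called falls at 24 h were those of POLR3K in 92-1 (-1.71), POLR3G in MEL202 (-2.12) and with IDE196 (-2.66), both subunits of RNA polymerase III, and of POLR1G, a subunit of RNA polymerase I, in MP41 (-1.85, edgeR adjusted p = 0.000157). The largest called rises were those of the RNA polymerase I subunit POLR1F in 92-1 (1.03) and of POLR3GL, the alternative to POLR3G, in MP41 (1.95) and with IDE196 (0.79). Without the libraries that stood apart the MP41 rise of POLR3GL against 1 DMSO library was 0.89 (edgeR adjusted p = 0.0179).

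MYC, the transcription factor classically tied to these genes, rose and then fell with FHT-1015 and fell with IDE196. In 92-1 it read 336, 355 and 391 CPM in DMSO and 578, 529 and 455 with FHT-1015 at 4 h (log2 change 0.53, SE 0.14, adjusted p = 0.00823 by edgeR), and 280, 314 and 390 CPM in DMSO and 70.9, 97.2 and 98.5 with the drug at 24 h (log2 change -1.88, SE 0.14, adjusted p = 2.02e-08 by edgeR). In MEL202 and MP41 MYC was called higher at 4 h (0.96 and 0.77, edgeR adjusted p = 0.0367 and 0.0171) and lower at 24 h (-1.76 and -1.03). IDE196 lowered MYC from 225, 291 and 308 to 112, 126 and 181 CPM at 4 h (log2 change -0.98, SE 0.16, adjusted p = 0.000428 by edgeR) and from 298, 314 and 415 to 99.1, 111 and 92.5 CPM at 24 h (log2 change -1.76, SE 0.17, adjusted p = 9.46e-08 by edgeR). In every one of these comparisons in 92-1 the groups were separate. MXD4, a MAX partner that opposes MYC, rose at 24 h in 92-1, MEL202 and MP41 by 2.02, 1.51 and 1.89 and with IDE196 by 0.65 at 4 h and 1.99 at 24 h. Other MAX partners that oppose MYC did not all move that way. In 92-1 with FHT-1015 MNT rose at 4 h (0.62, edgeR adjusted p = 0.00162) and 24 h (0.36, adjusted p = 0.0239). There MXD1 fell at 4 h (-0.72) and rose at 24 h (0.47), and MXI1 fell at 24 h (-0.58, edgeR adjusted p = 0.000283). With IDE196 MXD1 rose at both times (0.82 and 0.40), MXD3 at 4 h (0.85) and MXI1 at 24 h (1.33). MAX, the partner of MYC, fell at 24 h, with log2 changes of -0.63, -0.79 and -0.57 for FHT-1015 in the lines, and with IDE196 at both times (-0.38 at 4 h and -0.36 at 24 h). Of 8 genes of this network 7 were tested, MYCN being the one too low.

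Proliferation genes moved beside the ribosome biogenesis genes at 24 h. Of a list of 14, FHT-1015 lowered 14 in 92-1, 9 in MEL202 and 11 in MP41 at 24 h (medians -1.87, -1.08 and -1.17, background 31.4%, 10.1% and 18.7%), or 9 and 13 in MEL202 and MP41 without the libraries that stood apart (1 DMSO library in MP41), and IDE196 lowered 14 (median -1.71, background 29.4%). At 4 h edgeR called 3 lower in 92-1, 0 in MEL202, 0 in MP41 and 0 with IDE196 (background 16.7%, 0.522%, 0.154% and 9.3%). At an unadjusted p below 0.05 the counts were 7, 0, 0 and 2. The part of the MYC network, of proliferation, of the lower melanocyte markers or of the fibroblast markers called in MEL202 and 92-1 in the ribosome biogenesis changes was not tested.

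**Figure D5:**
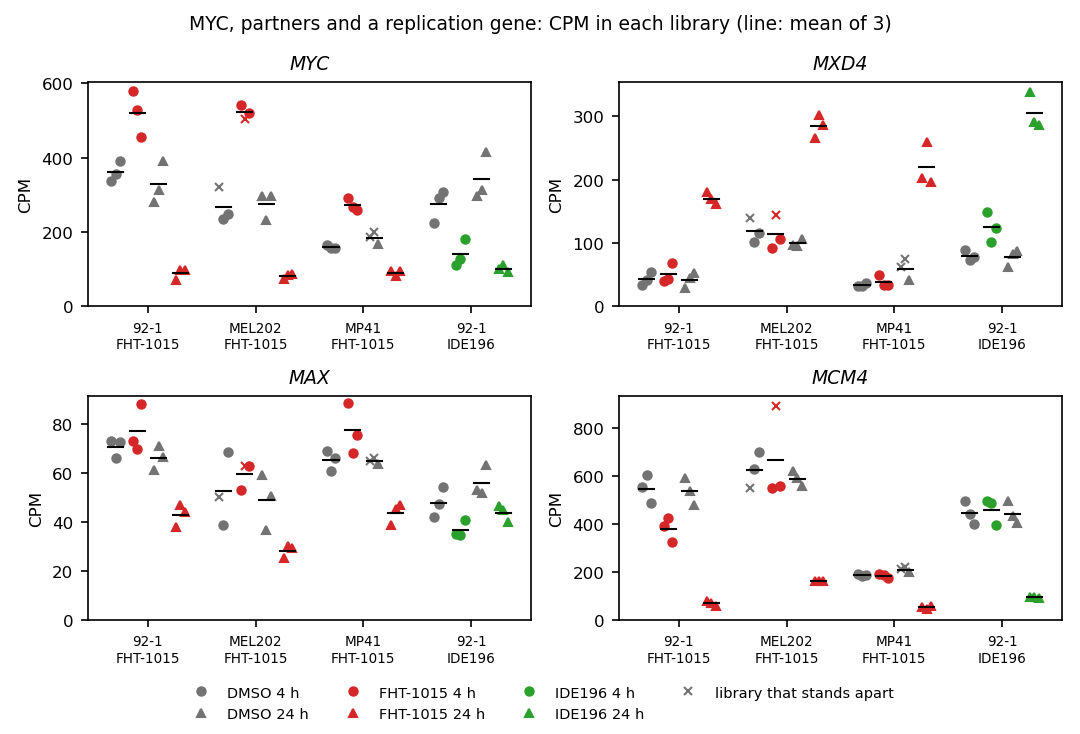
CPM of MYC, MXD4, MAX and the replication gene MCM4 in every library (points, lines at the mean of 3, crosses for the libraries that stood apart) by line, drug and time. MYC in 92-1 lies at 455 to 578 CPM after 4 h of FHT-1015 and at 70.9 to 98.5 after 24 h, and at 112 to 181 CPM after 4 h of IDE196.

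Genes with and without CACGTG in the promoter window were both among those that moved. In 92-1 at 4 h FHT-1015 raised 8 of the 16 genes with the letters and 8 of the 19 without (12.9% of all genes tested). At 24 h it lowered 14 and 15 (31.4%). At 24 h in MEL202 13 and 10 were lower (10.1%), in MP41 10 and 8 (18.7%), and with IDE196 15 and 16 (29.4%). With IDE196 at 4 h 12 and 12 were lower (9.3%). The medians at 24 h were -0.88 and -0.61 in 92-1, -1.17 and -0.82 in MEL202, -0.63 and -0.42 in MP41, and -1.28 and -1.22 with IDE196, with the letters first. At 4 h they were 0.255 and 0.208 in 92-1, 0.0743 and 0.243 in MEL202, 0.153 and 0.198 in MP41, and -0.613 and -0.431 with IDE196. The median with the letters was farther from 0 in each comparison but those of MEL202 and MP41 at 4 h. These medians are descriptions and were not tested against each other.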

How the data were processed

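The authors deposited raw counts of reads per gene for each library, laid out as the gene tables that STAR writes. The submitters' processing notes name the genome build hg38 and limma, while the aligner version and annotation are not given in the sources used here. The libraries came from poly-A RNA and a kit without strand marking, per the labels' protocols, so the unstranded column was used (49.73 to 50.11% of strand-assigned reads lay on the first strand). The 92 spike-in rows held no reads and were left out. Symbols and coordinates came from GENCODE 29, which holds 58597 of the 58870 genes.

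Genes were filtered with filterByExpr, scaled by TMM and tested with the quasi-likelihood F-test of edgeR 4.0.16 in R 4.3.3, one model of 12 libraries for each of 4 experiments (3 lines with FHT-1015, 92-1 with IDE196), one of the 3 lines together and one of both drugs in 92-1. P-values were adjusted by Benjamini-Hochberg over all genes, with a threshold of 0.05, and standard errors were derived from the F statistic. With 3 replicates per group, p-values measure the spread among libraries labelled as biological replicates. All members passed the filter in every experiment. The test was also run on simulated counts with known changes, of which it found the smaller ones least often in MEL202. Alternatives were other normalizations and filters, DESeq2 1.42.0, limma 3.58.1 (voom), offsets for GC content and length, the strand-specific columns, a replicate block, fits of fewer libraries and leaving out each library. Replicate numbers were not taken as pairs in the main tests.

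The members, gene lists and tests were chosen with earlier results of these data known. Every member was to be named, and sample values given for those with the largest calls, for 6 that fell in all 3 lines, for up to 4 called in opposite directions, for the 3 smallest p-values of each difference, and for the highest and lowest levels. Promoters came from RefSeq (GRCh38.p14).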

Additional observations from a re-analysis of the deposited data

Results flagged for a closer look

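The effect of FHT-1015 at 24 h differed between the lines, by an interaction test in edgeR, for 4 of the 42 genes, a share below the 12% of all genes tested. They were POLR1E (adjusted p = 3.2e-05), RRS1 (adjusted p = 0.0164), UTP15 (adjusted p = 0.0261) and NOP58 (adjusted p = 0.0405). The calls of RRS1 and UTP15 were lost when some single libraries were left out. POLR1E was called lower in MEL202 and in no other line, although all its treated libraries also lay below DMSO in MP41. RRS1 had its largest fall in MEL202, and UTP15 and NOP58 were not called in MP41, where the DMSO libraries include 2 that stood apart. Between the drugs in 92-1 the effects differed for 35 of the 42 genes at 4 h (24.6% of all genes tested) and for 21 at 24 h (33%). Drug and set of libraries cannot be told apart in those counts. Between 4 h and 24 h the FHT-1015 effects differed for 36 genes (92-1, background 45.5%), 21 genes (MEL202, 6.89%) and 17 genes (MP41, 18.6%). The IDE196 effects differed for 31 genes (30.7%).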

How the results depend on the processing

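The medians of the 42 genes, and the values picked by rule for printing by library, kept their direction under every alternative run. Other printed values were not checked for direction. The other gene lists were refitted only without the libraries that stood apart, and the promoter counts had no alternative. For the genes named with sample values, 442 of 443 values kept their call under other settings, the exception being NOP16 in MEL202 at 24 h under the strand-specific columns. Of 876 values with 1 library left out 865 kept it, the 11 losses being POLR1C with IDE196 at 4 h and the line differences of RRS1 (adjusted p 0.0533 to 0.0849) and UTP15 (0.0514 to 0.0718) in edgeR.

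Few counts of members moved by over 1.5 times. For 92-1 at 4 h the count of falls was 1 without a filter, with voom and with the GC and length offsets. For 92-1 at 24 h the count of rises was 2 with library sizes alone, 1 with voom and 2 with the GC and length offsets. In MEL202 at 4 h the GC and length offsets gave 2 rises, and the median was 0.30 with voom and 0.26 without the libraries that stood apart. In MEL202 at 24 h voom gave 1 rise. In MP41 at 4 h the rises were 1 with DESeq2, 3 with voom, 1 with the GC and length offsets, 1 with the 6 libraries of that time alone and 1 without the libraries that stood apart. In MP41 at 24 h the rises were 1 without a filter, 1 with DESeq2, 2 with voom and 2 with the GC and length offsets. There voom gave 32 falls and a median of -0.61, and the fit without the libraries that stood apart a median of -0.68. With IDE196 at 24 h the GC and length offsets gave 2 rises. The time difference was called for 32 genes in MEL202 with the GC and length offsets, and in MP41 for 34 with voom, 26 with the GC and length offsets and 29 without the libraries that stood apart. The line difference at 24 h was called for 7 genes without a filter. The values for MP41 at 24 h without the libraries that stood apart rest on 1 DMSO library. The GC and length offsets were fitted together, not each alone. The causes were not tested.

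With each library left out in turn, the rises in 92-1 at 4 h numbered 12 to 19 and the falls 0 to 1, with medians of 0.20 to 0.27. At 24 h the falls there numbered 34 to 35, with medians of -0.83 to -0.75. In MEL202 the medians at 4 h were 0.084 to 0.30, and at 24 h the falls numbered 22 to 31 with medians of -1.14 to -1.03. In MP41 the rises at 4 h numbered 0 to 1 with medians of 0.14 to 0.18, and at 24 h the rises numbered 0 to 3 and the falls 15 to 28 with medians of -0.60 to -0.45. With IDE196 the falls numbered 25 to 29 at 4 h (medians -0.53 to -0.45) and 37 at 24 h (-1.30 to -1.24). The time differences were called for 35 to 37, 12 to 28, 10 to 27 and 26 to 31 genes in 92-1, MEL202, MP41 and with IDE196, the line difference for 0 at 4 h and 1 to 12 at 24 h, and the drug difference for 30 to 35 at 4 h and 16 to 25 at 24 h.

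Deviations of same-numbered replicates had a correlation above 0.1 in 7 of 18 pairs (range -0.322 to 0.508). This does not settle whether they were paired, and the labels give only replicate numbers. The main tests did not take the numbers as pairs. With a replicate block the FHT-1015 counts were 21 higher and 1 lower in 92-1 at 4 h, 35 lower at 24 h, 29 lower in MEL202 at 24 h, and 21 lower and 1 higher in MP41 at 24 h. The time differences were then 36, 19 and 16 and the line difference 0 and 5. The IDE196 groups share no numbers with their DMSO groups. NOP2 alone had a DMSO mean under 1 CPM per kb. Median standard errors at 4 h over all genes were 0.314 in MEL202 and 0.233 in MP41, beside 0.142 in 92-1 with FHT-1015; their part in the counts of 0 was not tested.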
